A study of Mus musculus with 14 samples.

Results

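Selenbp1 and Selenbp2 are a pair of mouse genes for selenium binding proteins whose transcripts are nearly the same. They were taken by gene symbol from the deposited gene tables of a sequencing study of liver and kidney, so the members are 2 genes of the 19660 in the liver table and of the 20203 in the kidney table. The pair was chosen by the liver counts of these libraries, in which Selenbp2 had one of the lowest ratios of high salt to normal diet, so the liver diet values of both genes, of their sum and of their ratio are given as a description, with no test. Kidney values were not used in that choice and are tested. The comparison of liver with kidney is also tested, but it reuses the liver values by which the pair was chosen. A choice by a low ratio favours high normal diet and low high salt liver values. How the tissue gap changes with diet is therefore a description.

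The study sequenced RNA from adult male mice, 12 weeks old, that all carried a human angiotensinogen transgene of the genotype Hap -6A, on a Normal Diet or on High Salt. No group without the transgene was analysed here, so each comparison is between diets or tissues of transgenic mice, and the human transgene itself was not analysed here. Liver had 4 libraries on each diet and kidney had 3 on each diet. The labels do not say whether each library came from its own animal, so p-values measure the spread between these libraries.

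SELENBP1 binds selenium but holds no genetically encoded selenocysteine, unlike the selenoproteins proper. It is known as a methanethiol oxidase, an enzyme that breaks down methanethiol, a sulfur compound from methionine, to hydrogen sulfide, hydrogen peroxide and formaldehyde. Selenbp2 was first described in mouse liver as a protein that binds reactive products of acetaminophen, and its own reaction is less well known. Both are abundant in hepatocytes, and the pair lies close together on the same chromosome.

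In the GENCODE M21 annotation of GRCm38, Selenbp2 spans chr3:94693556-94704413 and Selenbp1 chr3:94933056-94944758, both on the plus strand, with starts 239.5 kb apart. Each has a main transcript of 12 exons, 1712 bases long in Selenbp1 and 1719 in Selenbp2. Over the 1712 aligned bases 25 differed, an identity of 98.54%, and 18 of these lay in the coding sequence of 472 codons. Of the 12 exons 10 held at least 1 difference and exons 8 and 10 held none. Exon 5, a coding exon, had 4 differences and is shown because reads over these bases can be told apart. Capitals mark the bases that differ.
Selenbp1 exon 5: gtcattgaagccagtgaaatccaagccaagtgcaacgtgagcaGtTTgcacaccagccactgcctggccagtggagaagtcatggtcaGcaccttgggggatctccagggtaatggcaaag
Selenbp2 exon 5: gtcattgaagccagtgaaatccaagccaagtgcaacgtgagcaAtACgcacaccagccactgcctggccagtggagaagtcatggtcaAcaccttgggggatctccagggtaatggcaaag
These stretches are chr3:94937955-94938075 and chr3:94698043-94698163 on the plus strand. Counted from 1 at the 5′ end of the exon, with the Selenbp1 base first, the differences were G44A, T46A, T47C and G89A.

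How much of a read set can be assigned to 1 copy depends on the read length, which is not given in the sources used here. Of all 50-base stretches of the Selenbp1 transcript, 52.3% also occur in Selenbp2. The share fell with the stretch length, to 34.7% at 75 bases, 21.3% at 100 bases and 6.97% at 150 bases, with values of 52%, 34.6%, 21.2% and 6.94% from the Selenbp2 side. The longest run without a difference was 193 bases, from base 946 of the transcript, and it covers exon 8. No transcript of any other gene in the annotation shares a 25-base stretch with either copy, so among annotated genes only these 2 share exact stretches of that length.

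**Figure D1:**
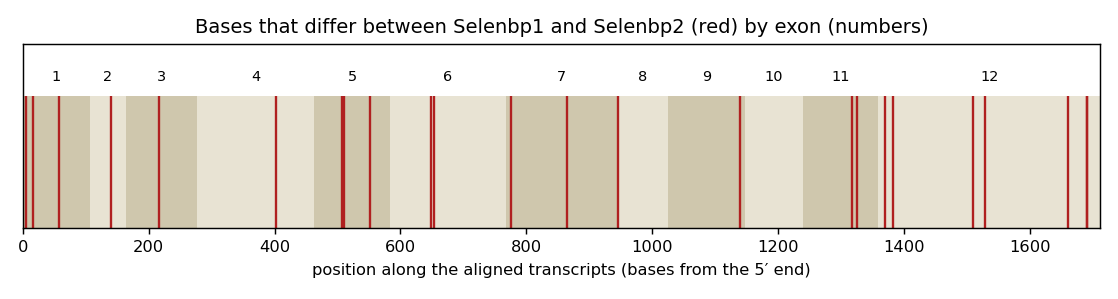
Positions of the 25 bases that differ between the Selenbp1 and Selenbp2 transcripts (red lines) along the aligned transcripts, in bases from the 5′ end, with the 12 exons as shaded blocks and their numbers above. Differences occur in 10 exons, and the gap that covers exon 8 is the longest run without one, 193 bases.

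The stretches just upstream of the genes are also alike. They are shown because the copies had different liver levels on the same diet; they run from the start of the RefSeq promoter window (GRCm38.p6) to the base before the annotated first exon, and capitals mark bases that differ or have no partner in the other copy.
Selenbp1 upstream: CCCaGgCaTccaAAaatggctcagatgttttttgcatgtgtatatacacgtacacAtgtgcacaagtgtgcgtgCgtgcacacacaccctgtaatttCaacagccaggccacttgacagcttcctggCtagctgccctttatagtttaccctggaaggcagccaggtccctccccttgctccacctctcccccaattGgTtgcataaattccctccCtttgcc
Selenbp2 upstream: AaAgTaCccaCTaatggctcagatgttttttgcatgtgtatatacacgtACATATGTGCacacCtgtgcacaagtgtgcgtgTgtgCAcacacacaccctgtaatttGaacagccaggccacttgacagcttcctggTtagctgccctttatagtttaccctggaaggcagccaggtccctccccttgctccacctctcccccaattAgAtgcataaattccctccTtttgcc
They are chr3:94932833-94933055 for Selenbp1 and chr3:94693323-94693555 for Selenbp2, on the plus strand. Of 221 aligned bases 208 were identical (94.1%) and 13 differed, and Selenbp2 held 12 more bases without a partner. The 300-base RefSeq windows of both genes, searched on both strands, each held 1 match to the TATA box letters TATAAA, which occur in 13.6% of the 32851 windows of all genes. In both it lay on the strand opposite to the gene, and reads tttata in the stretches shown. Neither window held TTCNNNGAA, the letters of a STAT5 site (8.3% of windows) or the E-box CACGTG (7.15%). A match or its absence describes the letters only.

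Liver libraries held 37267778 to 51487382 counts and kidney libraries 16046094 to 22004927. Mitochondrial transcripts took 2.062% to 29.56% of liver counts, with normal diet libraries 1 and 2 at 2.303% and 2.062%, and 23.49% to 41.18% of kidney counts. The high salt liver libraries are called HS5 to HS8 after their columns, which match no numbered title. HS5 and HS6 were the most alike of the liver pairs within a diet: the SD of their log2 count ratio over genes with at least 400 counts in both was 0.0945, against 0.284 to 0.738 in the 11 other pairs. Liver values of both copies, edgeR calls of named genes and the high salt tissue differences are therefore also given with the pair summed to 1 library. The DESeq2 calls were not repeated in this way and count HS5 and HS6 as separate libraries. Hepatocyte markers (Alb, Apoa1, Ttr, Serpina1c and Cps1) summed to 50434 to 106501 CPM in liver and 36.7 to 103 CPM in kidney, and 5 proximal tubule markers to 22943 to 57421 CPM in kidney and at most 44.9 CPM in liver, as the tissue labels say. CPM is a gene's count relative to its library's total after TMM scaling.

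In liver, Selenbp2 was lower in all high salt libraries than in any normal diet library, while Selenbp1 was not. Selenbp2 lay at 1238, 1243, 855 and 1179 CPM in normal diet libraries 1 to 4. On high salt it lay at 163 CPM in HS5, 166 in HS6, 362 in HS7 and 219 in HS8. The diets did not overlap, which was also so for 6.03% of all 15130 liver genes in this direction; library 3 was the low one on the normal diet and HS7 the high one on high salt. Mean Selenbp2 was 1129 ± 185 CPM, then 228 ± 93.1 (SD over 4 libraries a diet). Its log2 fold change was -2.31 ± 0.29 (SE), which leaves 20.2% of the normal diet mean.

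Selenbp1, the methanethiol oxidase gene, had liver levels of 328, 369, 223 and 247 CPM in normal diet libraries 1 to 4. In HS5 to HS8 it lay at 304, 321, 249.7 and 277 CPM. Every high salt value fell inside the normal diet range, and libraries 1 and 2 were above the other normal diet libraries. Mean Selenbp1 was 292 ± 68.4 CPM, then 288 ± 31.3 (SD over 4 libraries a diet). Its log2 fold change was -0.02 ± 0.20 (SE). Without normal diet libraries 1 and 2, those with little mitochondrial RNA, the log2 fold change of Selenbp1 was 0.29 and that of Selenbp2 was -2.16.

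The sum of both copies does not depend on how reads were divided between them, and no other annotated transcript shares a 25-base stretch with either. Sequence outside annotated transcripts and inexact matches were not searched. Reads left out before counting because they fit more than 1 place would not be seen in the sum. Summed, the copies had 1566, 1612, 1077 and 1426 CPM in normal diet libraries 1 to 4, and 467, 487, 612 and 496 CPM in HS5 to HS8. The diets did not overlap, and the highest high salt sum, in HS7, was below the lowest normal diet sum. The mean sum was 1420.4 ± 242 CPM, then 515 ± 65.2 (SD over 4 libraries a diet). Its log2 fold change was -1.46 ± 0.20 (SE), or 36.3% of the normal diet mean. The difference of means, high salt minus normal diet, was -901 CPM for Selenbp2 and -3.94 CPM for Selenbp1. As arithmetic only, moving the whole Selenbp2 difference to Selenbp1 with the total kept would put Selenbp1 at 1193 CPM. The value measured was 288 CPM. A move of part of the reads, or a loss of reads that fit both copies, was not tested.

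**Figure D2:**
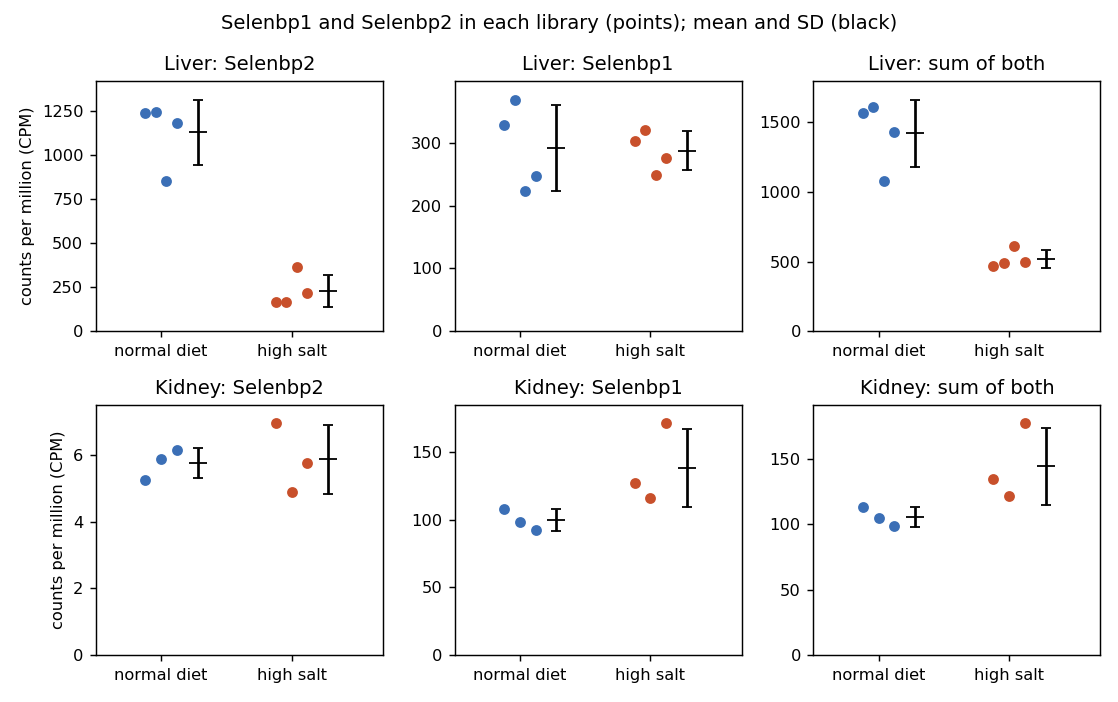
CPM of Selenbp2, Selenbp1 and their sum in each liver library (top) and kidney library (bottom) by diet; points are libraries, black bars the mean and SD, and every axis starts at 0. In liver Selenbp2 and the sum did not overlap between the diets, while Selenbp1 did.

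The share of Selenbp2 in the summed counts is taken within a library, so neither the depth nor the scaling of libraries enters it. On the normal diet it was 79.1%, 77.1%, 79.3% and 82.7% in libraries 1 to 4, a mean of 79.5 ± 2.31% (SD, n = 4). On high salt it was 35.0% in HS5, 34.1% in HS6, 59.2% in HS7 and 44.2% in HS8, a mean of 43.1 ± 11.6%. Libraries 1 to 4 were alike whatever their mitochondrial share, and no high salt library reached them. The 95% Wilson interval of a library's share reached at most 0.607 percentage points to either side in liver, which covers counting error alone; without molecular identifiers, reads may be copies of 1 molecule. With HS5 and HS6 summed, the log2 fold changes were -2.18 for Selenbp2, -0.06 for Selenbp1 and -1.43 for the sum.

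Per kilobase of transcript, a scale on which levels of different genes can be compared, liver Selenbp2 stood at 657 ± 108 CPM per kb on the normal diet, above Selenbp1 at 170 ± 40.0. On high salt Selenbp2 was at 132 ± 54.1 CPM per kb and Selenbp1 at 168 ± 18.3 (SD, n = 4 each). The ratio of Selenbp2 to Selenbp1 per kb lay between 3.35 and 4.75 in the normal diet libraries and between 0.515 and 1.44 in the high salt libraries. In order, normal diet Selenbp2 came first, and the other 3 liver levels overlapped.

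**Figure D3:**
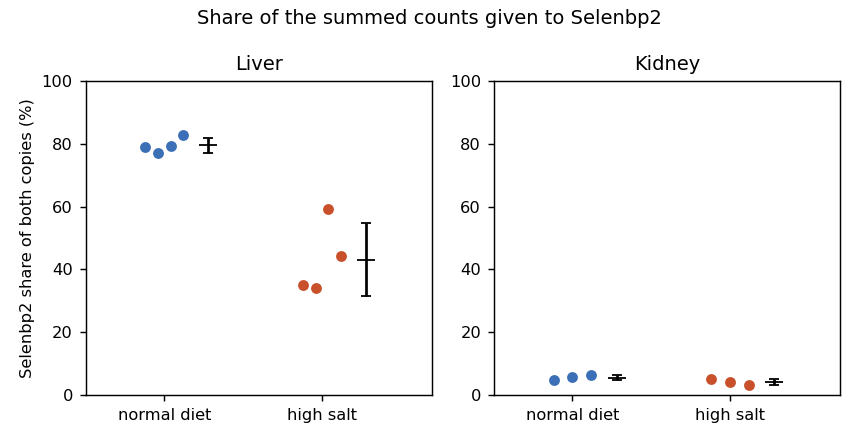
Share of Selenbp2 in the summed counts of both copies, in percent, in each liver and kidney library by diet, with the mean and SD in black. The normal diet liver libraries sit between 77.1% and 82.7%, the high salt liver libraries between 34.1% and 59.2%, and all kidney libraries between 3.26% and 6.26%.

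Some liver cell type markers did not overlap between the diets, as was so for 6.03% of all liver genes with the lower and 6.42% with the higher level on high salt, and none of those named here passed edgeR's adjusted threshold. The summed hepatocyte markers, all 5 measured and none at 0, ranged from 50434 to 77059 CPM on the normal diet and from 88621 to 106501 CPM on high salt. That sum follows Alb, the albumin gene, at 43963 ± 8323 and 74599 ± 7507 CPM (SD, n = 4 each), while Serpina1c did not overlap in the other direction, at 9799 ± 1681 and 6322 ± 719 CPM. Relative to Alb in the same library, Selenbp2 stood at 1.69% to 3.63% on the normal diet and at 0.221% to 0.425% on high salt. The 3 stellate cell and fibroblast markers Dcn, Col1a1 and Lrat summed to 47.5 to 97.0 CPM and to 105 to 120 CPM without overlap, and none was at 0. Summed markers of cholangiocytes, macrophages, endothelium, neutrophils and lymphocytes overlapped between the diets. The edgeR adjusted p-values were 0.190 for Alb, 0.184 for Serpina1c, 0.173 for Dcn and 0.102 for Col1a1. The part of these differences in the Selenbp2 values was not tested, and in bulk tissue fewer cells of a type and less RNA per cell cannot be told apart.

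In kidney Selenbp2 was scarce and Selenbp1 made up most of the pair, and neither passed the test between diets. Selenbp1 lay at 108, 98.7 and 92.1 CPM in normal diet libraries 1 to 3 and at 127, 116 and 171 CPM in high salt libraries 1 to 3. All 3 high salt values were above the normal diet values, with high salt library 3 the highest. No overlap with the higher level on high salt was seen for 3.84% of the 15847 kidney genes. The means were 99.6 ± 8.02 and 138.4 ± 29.1 CPM (SD, n = 3 each). The log2 fold change of 0.47 ± 0.22 (SE) did not pass edgeR's quasi-likelihood test (unadjusted p = 0.0612, Benjamini-Hochberg adjusted p = 0.9996), and its 95% interval ran from -0.03 to 0.98. Without high salt library 3 it was 0.29.

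Kidney Selenbp2 had 77.8 to 156 expected counts a library. Selenbp1 was far more abundant there, and gene counts do not show how reads that fit both copies were divided. The kidney Selenbp2 level, and the tissue gap that rests on it, may therefore include Selenbp1 reads, which was not tested. It lay at 5.27, 5.88 and 6.15 CPM in normal diet libraries 1 to 3, and at 6.96, 4.90 and 5.78 CPM in their high salt counterparts by number. These ranges overlapped, with means of 5.77 ± 0.453 and 5.88 ± 1.04 CPM (SD, n = 3 each). The log2 fold change was 0.04 ± 0.22 (SE), with an edgeR adjusted p of 0.9996 and a 95% interval from -0.48 to 0.55, and its sign was not stable to leaving out 1 library. That interval does not reach the liver value of -2.31, a comparison given as a description because the liver value was used in the choice of the genes. Summed, the kidney copies had a log2 fold change of 0.45 ± 0.22 (SE), with an edgeR adjusted p of 0.9996.

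By edgeR no gene of the kidney table was called between the diets (0% of 15847), 2.01% had an unadjusted p under 0.05, and DESeq2 called 11, or 0.0694%. The kidney share of Selenbp2 was 4.65%, 5.63% and 6.26% on the normal diet and 5.18%, 4.04% and 3.26% on high salt. The difference of means was -1.35 percentage points with an exact permutation p of 0.2, two-sided, where 0.1 is the smallest value that 3 against 3 can give. A library's 95% Wilson interval reached up to 1.14 percentage points to either side in kidney. That width is for 1 library, and the counting error of the difference between means of 3 libraries was not computed.

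Kidney Selenbp2 was compared with liver transcripts in the same libraries. Alb lay between 2.70 and 35.7 CPM in kidney, and Selenbp2 stood at 16.5% to 195% of it, while in liver Selenbp2 was at no more than 3.63% of Alb. The 5 proximal tubule markers summed to 22943 to 57413 CPM on the normal diet and 31199 to 57421 CPM on high salt. The heart muscle gene Myh6 lay at 1.63 to 1.88 CPM in kidney on the normal diet and at 0.126 to 0.357 CPM on high salt. Myh6 had at most 38.8 counts in a kidney library and was not called (edgeR adjusted p = 0.9996). Its part in the kidney values was not tested.

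Both copies were higher in liver than in kidney on either diet, and the gap was far wider for Selenbp2. All 14 libraries were scaled and fitted together over genes shared by both tables. On that joint scale Selenbp2 stood at 1344 ± 257 CPM in normal diet liver (SD, n = 4) and 4.70 ± 0.382 CPM in normal diet kidney (SD, n = 3). On high salt it stood at 269.6 ± 104 and 4.79 ± 0.834 CPM. The log2 difference, liver minus kidney, was 8.16 ± 0.41 (SE) on the normal diet, a fold of 286 (edgeR adjusted p = 3.56e-10). On high salt it was 5.81 ± 0.37, a fold of 56.1 (edgeR adjusted p = 4.09e-09). The change of this gap between the diets holds the liver values used in the choice and was not tested. All liver libraries were above all kidney libraries on both diets. With HS5 and HS6 summed, the high salt difference was 5.94 for Selenbp2 and 1.58 for Selenbp1 (edgeR adjusted p = 1.46e-08 and 0.000217).

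Selenbp1 differed less between the tissues. Its joint-scale means were 349 ± 96.3 CPM in liver and 81.2 ± 6.31 CPM in kidney on the normal diet, and 343 ± 43.4 and 113 ± 23.3 CPM on high salt. The log2 difference was 2.10 ± 0.26 for the normal diet but 1.61 ± 0.25 for high salt, with edgeR adjusted p-values of 3.73e-06 and 5.01e-05. For the sum of the copies it was 4.30 ± 0.29 and 2.38 ± 0.26, with edgeR adjusted p-values of 6.93e-09 and 1.61e-06. Tissue differences are common: 32.9% of 16633 genes were called higher in liver for the normal diet, and 32.7% for high salt.

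The genes around the pair were taken as all those starting within 300 kb of either copy, 34 in number, of which 27 could be tested in liver and 23 in kidney. By edgeR none was called in liver, where 1.00% of all 15130 genes were, and none in kidney. In liver 7 of the 27 had an unadjusted p under 0.05, a share to be read against 21.2% of all genes, and in kidney none did. DESeq2 called 3 in liver, Cgn, Psmb4 and Zfp687, against 7.42% of all genes, and none in kidney. With HS5 and HS6 summed edgeR called none of the 27. The median log2 fold change of the neighbours was -0.22 in liver, with a range from -0.88 to 1.21, against -0.02 for all genes, and 0.03 in kidney. The liver value of Selenbp2, -2.31, lay below that range.

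Between the copies lie Cgn, Pogz and Psmb4. Cgn, which encodes the tight junction protein cingulin, went from 5.96 ± 2.78 to 13.8 ± 2.58 CPM in liver without overlap of the diets (6.42% of all liver genes had none in this direction). Its value of 1.21 ± 0.30 on the log2 scale missed the threshold (edgeR adjusted p = 0.0867). Pogz, a chromatin protein gene, was at 0.57 ± 0.28 on that scale and Psmb4, a proteasome subunit gene, at -0.58 ± 0.18 (edgeR adjusted p = 0.273 and 0.137). BC021767, the tested gene nearest to Selenbp2 on its other side, was at 1.41 ± 0.748 and 1.16 ± 0.610 CPM, or -0.29 on the log2 scale. Rfx5, just past Selenbp1 and a regulator of MHC class II genes, had 0.67 ± 0.24 (edgeR adjusted p = 0.172). These neighbours thus had values on both sides of 0.

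**Figure D4:**
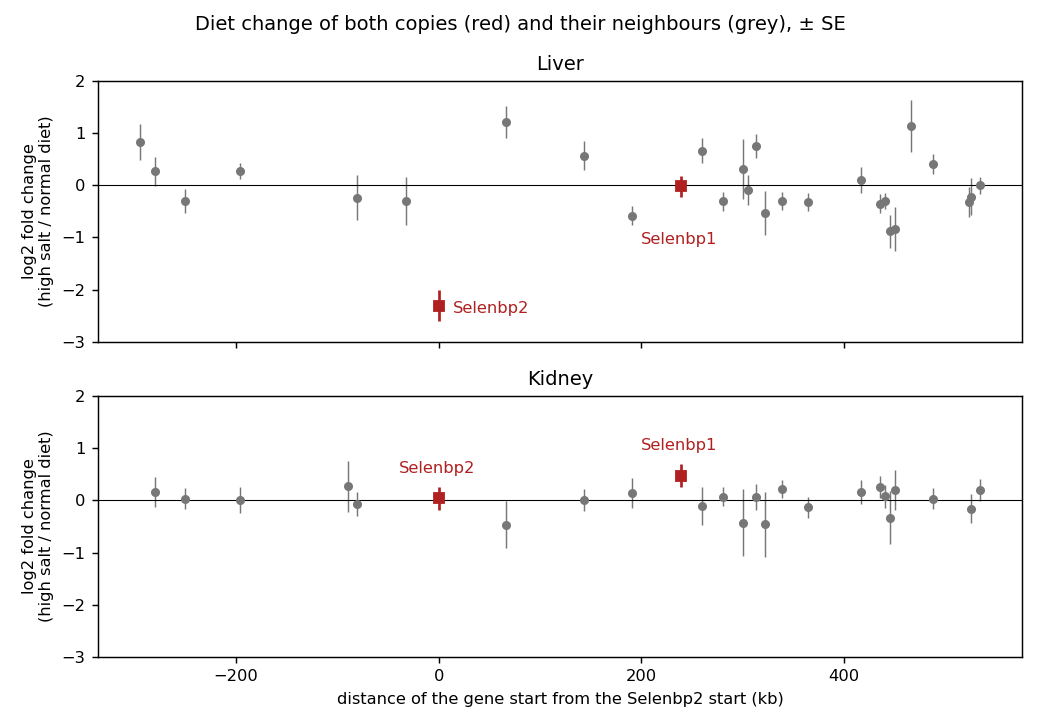
Log2 fold change of high salt over normal diet, ± SE, for Selenbp1 and Selenbp2 (red) and their tested neighbours (grey) against the distance of each gene's start from that of Selenbp2, in liver and kidney. Liver neighbours lie between -0.88 and 1.21, and Selenbp2 lies at -2.31.

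The genes whose liver levels followed each copy most closely were named by Pearson correlation of log2 CPM over the 8 liver libraries, among 12189 genes with a mean count of 50 or more. The libraries share depth and diet, so the coefficients are descriptions. For Selenbp2 they were Snx22, a sorting nexin gene (r = 0.994), Tmem62 (0.984), Cyp7b1, the oxysterol 7-alpha-hydroxylase gene (0.984), Dcun1d5, which takes part in neddylation (0.983), and Nnmt, nicotinamide N-methyltransferase (0.981). With the diet means removed, the coefficients were 0.968, 0.823, 0.826, 0.892 and 0.765 in that order. All 5 had lower means on high salt, and edgeR, which called 0.410% of all genes lower, called Nnmt (384 ± 80.7 to 65.7 ± 11.4 CPM), Cyp7b1, Tmem62 (15.3 ± 2.27 to 7.47 ± 0.794 CPM) and Snx22 (30.7 ± 2.49 to 16.3 ± 3.26 CPM). Dcun1d5 had an edgeR adjusted p of 0.0542. With HS5 and HS6 summed, when only 12 of the liver table's genes were called, Nnmt and Cyp7b1 passed (edgeR adjusted p = 0.0310 and 0.0446) while Tmem62 and Snx22 did not (0.141 and 0.174). Of 19 alternatives Tmem62 passed in 10 and Snx22 in 9, all with lower values on high salt. These genes were picked for following Selenbp2, so their direction adds nothing to it.

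Selenbp1 had another set of nearest genes in liver. They were the linker histone gene H1f0 (r = 0.978), Gm1826 (0.972), the mismatch repair gene Mlh3 (0.966), the SNARE gene Vti1a (0.960) and Cmtm6 (0.960), with log2 fold changes from -0.04 to 0.09 and none called by edgeR. The copies themselves had r = -0.02 over the 8 liver libraries. Over the 6 kidney libraries the nearest genes to Selenbp1 were Mecr (0.992), Asl, the urea cycle gene for argininosuccinate lyase (0.987), Dnttip1 (0.984), Mdh1 (0.984) and Hgd, a tyrosine breakdown enzyme gene (0.983). For kidney Selenbp2 they were the interferon-induced gene Ifit2 (0.983), Fam76a (0.981), Ppp3ca (0.967), Casp6 (0.963) and Btnl9 (0.960), and the copies had r = 0.05. No gene was named for both copies in either tissue.

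Sulfur amino acid and hydrogen sulfide genes, the pathway that feeds and handles the products of methanethiol oxidation, were described next. Of 20 listed, all 20 were tested in liver and edgeR called none, where 1.00% of all genes were called; 8 had an unadjusted p under 0.05, against 21.2% of all genes. Their median log2 fold change was -0.24, against -0.02 for all genes, with 14 below 0. The most abundant were Mat1a, which makes S-adenosylmethionine, at 1998 ± 403 and 1736 ± 247 CPM, Gnmt, which spends it, at 1772 ± 915 and 895 ± 76.5 CPM, and Cdo1, the cysteine dioxygenase, at 1045 ± 155 and 867 ± 50.9 CPM. All 3 overlapped between the diets. DESeq2 called 3 members, against 7.42% of all genes, named here after their values were seen and all lower on high salt: Bhmt, which remethylates homocysteine (log2 fold change -1.33), Cth, which makes cysteine and hydrogen sulfide (-1.19), and the aspartate aminotransferase gene Got1 (-0.77).

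Selenoproteins and the factors that make them share the element but not the chemistry of the pair. Of 27 tested in liver, edgeR called 1, Dio1, and it was lower; 0.410% of all genes were called lower. Dio1, the selenoenzyme that activates thyroid hormone, lay at 205, 215, 229 and 211 CPM in normal diet libraries 1 to 4. In HS5 to HS8 it lay at 89.8, 87.4, 58.7 and 49.3 CPM. The diets did not overlap, and Dio1 fell by 1.59 ± 0.21 (SE) on the log2 scale (edgeR adjusted p = 0.0141). The call was lost without HS6 (adjusted p = 0.0544), with HS5 and HS6 summed (0.0527) and without normal diet libraries 1 and 2 (0.0570), at log2 fold changes from -1.71 to -1.62.

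Over all 27 tested liver genes of the list, Dio1 included, the median was -0.24, with 18 below 0 and 11 at an unadjusted p under 0.05, against 21.2% of all genes. Selenop, the gene of the plasma selenium carrier, had the highest level, at 6707 ± 2393 and 4824 ± 1396 CPM with overlap. Gpx1, the cytosolic glutathione peroxidase gene, was at 2394 ± 760 and 1171 ± 218 CPM without overlap, or -1.03 ± 0.27 on the log2 scale (edgeR adjusted p = 0.0981). DESeq2 called 7 of the list, against 7.42% of all genes. Of these, 6 were lower, Dio1 among them. Gpx3, the plasma glutathione peroxidase gene, was higher (log2 fold change 1.63, named after its value was seen). Liver Gpx3 lay at 0.999 to 4.15 CPM on the normal diet and 3.19 to 15.8 CPM on high salt, with overlap. In kidney Gpx3 lay between 5810 and 7883 CPM. The 5 proximal tubule markers summed in liver to 0.476 to 5.61 CPM on the normal diet. On high salt they summed to 2.77 to 44.9 CPM, with overlap. The part of kidney transcripts in the liver Gpx3 values was not tested.

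Male-biased and female-biased liver genes were listed because many liver genes that respond to growth hormone and androgens carry a sex bias. Of 19 male-biased genes tested, edgeR called 2, both lower, where 0.410% of all genes were called lower, and the list median was -0.45. Of the 19, 8 had an unadjusted p under 0.05, against 21.2% of all genes, and DESeq2 called 5, against 7.42% of all genes: Cyp7b1, Moxd1, Ugt2b38 and Susd4 lower and Cspg5 higher (log2 fold change 1.24), the last 3 named after their values were seen. Cyp7b1 lay at 483, 533, 441 and 444 CPM on the normal diet and at 148, 146, 190 and 144 CPM in HS5 to HS8, without overlap. Cyp7b1 fell by 1.60 ± 0.17 (SE) on the log2 scale (edgeR adjusted p = 0.00517) and passed in all 19 alternatives. Moxd1, a monooxygenase-like gene, lay at 45.2, 14.3, 0.283 and 13.0 CPM on the normal diet and at 0.0178, 0, 0.0831 and 0.371 CPM on high salt. The Moxd1 diets overlapped through normal diet library 3, and its call (edgeR adjusted p = 0.0470) was lost in 10 of 18 alternatives, with adjusted p-values up to 0.185. The Moxd1 log2 fold change was -7.19 ± 1.39 (SE), from so few high salt counts that its size is uncertain, and lay between -8.99 and -5.73 over the alternatives. The major urinary protein genes Mup3 and Mup20, at 11871 ± 346 and 10068 ± 3606 CPM and at 9913 ± 1093 and 8630 ± 1959 CPM, overlapped between the diets.

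Of 10 female-biased genes tested in liver edgeR called none, with 2 at an unadjusted p under 0.05, near the 21.2% of all genes. DESeq2, which called 7.42% of all genes, called Acot3, a peroxisomal thioesterase gene named after its value was seen. The list median was 0.35. Its most abundant members were Cyp2a4, at 0.439 ± 0.121 and 63.9 ± 127 CPM the second with an SD above its mean, Trim24 at 13.7 ± 5.23 and 12.9 ± 3.02 CPM, and Cyp39a1 at 10.1 ± 7.29 and 15.1 ± 4.26 CPM. For Cyp2a4 the high salt libraries ran from 0.240 to 254 CPM, and the highest library made up nearly all of the mean. Of 20 target genes of PPARA, the nuclear receptor of fatty acid oxidation, edgeR called none, with 4 at an unadjusted p under 0.05, near the 21.2% of all genes, and a median of 0.07. Acaa1b, a peroxisomal thiolase gene among the most abundant of the list, was at 372 ± 142 and 694 ± 106 CPM without overlap, and DESeq2, which called 7.42% of all genes, called it with Cyp4a14 and Fgf21, also higher, and Creb3l3, which was lower; these 3 were named after their values were seen.

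In kidney edgeR and DESeq2 called no member of any of the 5 lists. Their median log2 fold changes were 0.10 for sulfur amino acid genes, -0.06 for selenoproteins, 0.09 for male-biased, 0.05 for female-biased and 0.23 for PPARA target genes, against -0.02 for all kidney genes. Of these genes 2 male-biased ones and 1 PPARA target had an unadjusted p under 0.05, and no sulfur amino acid, selenoprotein or female-biased gene did, against 2.01% of all kidney genes.

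**Figure D5:**
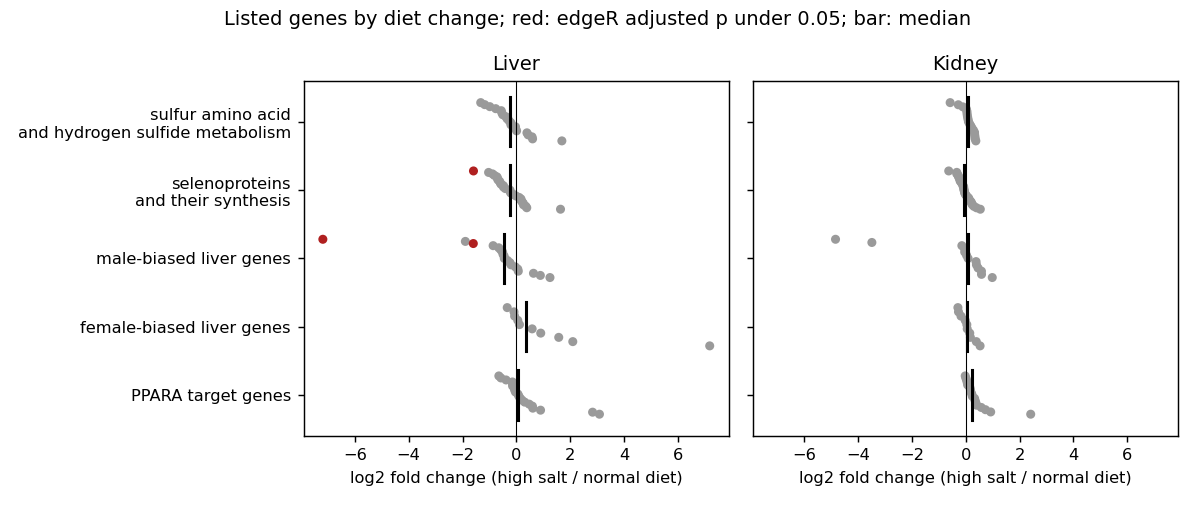
Log2 fold change of high salt over normal diet for each tested gene of the 5 lists in liver and kidney; red points passed an edgeR adjusted p of 0.05 and the black bar is the list's median. The liver has 3 called genes, Dio1, Cyp7b1 and Moxd1, all lower, and the kidney has none.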

How the data were processed

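Gene tables from 14 RNA libraries were used. The authors deposited expected counts per gene, estimated with Partek 7.0 (expectation-maximisation, per the file names) from STAR 2.5.3a alignments to mm10, per the submitters' processing notes. Such counts divide reads that fit both copies: 27 of the 28 Selenbp1 and Selenbp2 values were not whole numbers. Gene counts do not show that division, so it was not tested read by read. Normalized values were also deposited, as a signal for each gene whose scaling method is not given in the sources used here; DESeq2 is named in the notes with no role.

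Rounded counts were tested with edgeR 4.0.16 in R 4.3.3 (quasi-likelihood, TMM, filterByExpr, Benjamini-Hochberg adjusted p under 0.05), separately by tissue with a diet term, and in 1 fit of both tissues over 17600 shared genes. Sums replaced both rows by their total. Intervals are from the same fits. The scripts were tested on simulated data. Neighbours within 300 kb, the 5 genes per copy with the highest correlation (log2 of CPM plus 1) and, per list, called genes and the most abundant up to 3 were named; some genes that this rule takes are not reported here. The members and lists were chosen with earlier results of these data known. Sequences came from GENCODE M21 (GRCm38) and RefSeq (GRCm38.p6), where both symbols matched. Protein sequences were not used here.

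Alternatives were RLE, upper quartile and no scaling, other count filters, removal of mitochondrial genes, DESeq2 1.42.0, limma 3.58.1 on the deposited signal with pseudocounts of 1 and 0.1, each library left out, HS5 and HS6 summed, normal diet liver libraries 1 and 2 left out, and a replicate block. The common biological coefficient of variation, the spread between replicates, was estimated at 0.314 for liver and 0.300 for kidney.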

Additional observations from a re-analysis of the deposited data

Results flagged for a closer look

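Among 20 liver groups of 4 libraries checked for a value far from the others, 2 stood out, where chance gives about 1. For Selenbp2 CPM on the normal diet, library 3 at 855 CPM was far below the other 3 at 1179 to 1243 CPM, with a gap of 0.835 of the group's range. For Cyp7b1 CPM on high salt, HS7 at 190 CPM was above the other 3 at 144 to 148 CPM, with a gap of 0.910 of the range. HS7 also held the highest Selenbp2 level on high salt, 362 CPM.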

How the results depend on the processing

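The liver log2 fold change of Selenbp2 lay between -2.64 and -2.10, and that of the sum between -1.58 and -1.23, over all alternatives. The sum moved most with no scaling, to -1.23, a setting that moved the median of all liver genes from -0.02 to 0.25. Selenbp1 in liver moved to 0.29 without normal diet libraries 1 and 2. Leaving out 1 library gave -2.64 to -2.18 for Selenbp2, -0.14 to 0.11 for Selenbp1, -1.58 to -1.40 for the sum and -41.8 to -33.4 percentage points for the share. The kidney Selenbp2 value of 0.04 changed sign with limma, to -0.0077 and -0.0079 at pseudocounts of 1 and 0.1, and ranged from -0.10 to 0.15 when 1 library was left out, below 0 without normal diet library 1 (-0.02) or high salt library 1 (-0.10). Selenbp1 in kidney was 0.73 with no scaling. The tissue differences of both copies passed in every alternative; with no scaling, which moved the median tissue difference of all genes on the normal diet from 0.02 to -0.51, Selenbp1 was at 1.58 and 1.07 and Selenbp2 at 7.64 and 5.26 on the 2 diets. The number of listed liver genes called, 3, became 20 with DESeq2, 1 with HS5 and HS6 summed, and 1 to 11 when 1 library was left out, with 11 without normal diet library 3, 5 without library 4 and 1 without HS6. Over all liver genes 152 were called, against 665 with no scaling, 1122 with DESeq2, 98 and 57 with limma, 12 with HS5 and HS6 summed, 52 without normal diet libraries 1 and 2, and 12 to 765 when 1 library was left out. With no scaling 612 liver genes were called higher and 53 lower, against 90 and 62. In the tissue comparison 5469 genes were called higher and 5354 lower on the normal diet, and 3395 and 7088 with no scaling. The causes were not tested.

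With the replicate block, kidney Selenbp1 was 0.46, Selenbp2 0.03 and the sum 0.44, none called, and no kidney gene was called. Same-numbered kidney libraries correlated at 0.53, 0.515 and -0.15 in their deviations. With 3 libraries a diet, these values cannot tell whether the numbers pair them. With a replicate block over normal diet libraries 1 to 3 of both tissues, chosen after seeing the data, the tissue differences of both copies passed. No paired analysis was possible because, for the liver diets, the high salt columns carry no matching replicate number.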
